A study of Mus musculus with 6 samples.

Results

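The genes described here are 10 ligands and enzymes with which tumor cells can restrain an immune attack, taken by symbol from the 24129 gene names of the RNA sequencing table. They are the B7 family members Cd274, Pdcd1lg2, Cd80, Cd276 and Vtcn1, the surface proteins Cd47 and Pvr, the galectin Lgals9, and the enzymes Nt5e and Ido1. Their expression was compared between 2 tumor cell populations, each with 3 replicates. Both populations came from a primary tumor grown in a BALB/c mouse from 4T1GFP cells, the 4T1 mouse mammary carcinoma line carrying green fluorescent protein (GFP), a model of triple negative breast cancer. T1 cells (labelled 4T1A) were the low GFP, adherent and aggressive population. T2 cells (labelled 4T1NA) were the GFP high population as the study describes them, with a round, loosely adherent shape and a less aggressive course. Both were sorted for GFP out of a culture of tumor fibroblasts that the tumor cells had outgrown, and were grown in the same medium. That culture had begun as GFP negative cells sorted for CD140a. The labels call the replicates independent but do not say whether they are separate sorts or separate cultures. The p-values therefore set a difference against the spread between these samples and do not extend to other isolates of such cells.

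Checkpoint ligands on a tumor cell bind receptors on T cells, natural killer cells or macrophages and lower their activity. Cd274 and Pdcd1lg2 encode PD-L1 and PD-L2, the ligands of PD-1, and Cd274 is known as a target of interferon gamma signalling. Cd80 engages CD28 and CTLA-4, and Cd276 (B7-H3) and Vtcn1 (B7-H4) are B7 relatives that restrain T cells. Cd47 is the signal that tells a macrophage, through SIRP alpha, not to engulf a cell. Pvr (CD155) is bound by TIGIT, CD96 and the activating receptor CD226. Lgals9 (galectin 9) is a ligand of TIM-3. Nt5e (CD73) turns AMP into adenosine, and Ido1 takes tryptophan into the kynurenine pathway; both products dampen T cells.

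Promoter sequences are shown for the members with contrasting patterns, Cd47 as the ligand lower in T1 cells, Lgals9 as a ligand higher in T1 cells, and Cd274 because it shares its start region with a neighbor. They are RefSeq sequences of build GRCm38.p6, the assembly also called mm10, from the 250 bases before a transcription start, without any base in an annotated exon. Lower case letters are plain sequence and capitals mark motif matches. The Cd47 stretch is chr16:49855404-49855632 on the plus strand, the Lgals9 stretch chr11:78984947-78985174 on the minus strand, and the Cd274 stretch chr19:29367391-29367437 on the plus strand. The RefSeq start used for Cd47 lies inside the GENCODE span of the gene.
Cd47: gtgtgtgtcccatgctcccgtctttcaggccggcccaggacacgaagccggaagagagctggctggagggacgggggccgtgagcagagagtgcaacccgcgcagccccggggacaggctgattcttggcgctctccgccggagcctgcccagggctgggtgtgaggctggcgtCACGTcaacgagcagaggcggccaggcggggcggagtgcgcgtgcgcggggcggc
Lgals9: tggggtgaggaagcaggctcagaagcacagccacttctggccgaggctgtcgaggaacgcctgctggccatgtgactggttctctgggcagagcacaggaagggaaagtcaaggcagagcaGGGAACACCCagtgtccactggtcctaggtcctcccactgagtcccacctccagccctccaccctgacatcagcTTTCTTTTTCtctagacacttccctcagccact
Cd274: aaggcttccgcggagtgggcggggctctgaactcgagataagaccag

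Windows of 250 bases were given for 8 of the 10 members, not for Pvr or Ido1, and Cd47 had 2 that overlap. Of the 5 motifs searched on both strands, the interferon stimulated response element (TTTC, any 2 bases, TTTC) was in the Lgals9 window alone among the members' windows, from 55 to 46 bases before the start, and in 2.98% of all 32851 windows. The hypoxia response element ACGTG was in both Cd47 windows, on the other strand, and in 16.6% of all windows. The gamma activated site TTCNNNGAA (7.02% of all windows) was in none of the members' windows. The kappaB site (GGG, any 5 bases, CC) was in the windows of Pdcd1lg2, Cd80, Cd276, Lgals9 and Nt5e, and in 45.8% of all windows, and the AP-1 site TGANTCA was in that of Cd80, against 6.75%. The Cd274 window held no match. The windows also differed in CG dinucleotides, of which the median over all windows was 6. Cd276 had 29, Nt5e 21, Cd274 11 and Lgals9 3, and the first of the Cd47 windows had 30. A match is a description of letters and not a binding site.

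The libraries held 18133227 to 20839686 reads on genes. The populations stood apart, with a lowest correlation of 0.987 between replicates of a population and a highest of 0.859 between populations (log2 values of the genes compared). The spread between replicates exceeded counting noise (chi-square divided by its degrees of freedom, 7.96 to 25.0). Krt8 and Krt18, keratins of simple epithelium, were abundant in both populations (17356 to 25833 normalized counts), while Epcam was at 2931 to 3502 in T1 cells and 30.7 to 37.2 in T2 cells. Other epithelial markers were also far higher in T1 than in T2 cells. These were Cdh1 (13726 to 15461 against 453 to 484), Krt14 (3707 to 3845 against 0 to 7.17) and Cldn4 (4291 to 7001 against 2.78 to 8.19). Krt5 had 0 reads and Elf5 had 1. Of 16 leukocyte markers 6 had no read in any library, Cd3e and Tyrobp among them, and Ptprc reached at most 6.14 normalized counts. The summed leukocyte list was at 388 to 472 in T1 cells and 176 to 211 in T2 cells, carried by Cd14 and Cd68, the only 2 with enough reads to be compared. Of 9 fibroblast markers 4 had no read, Col3a1 among them. The summed list, mostly Pdgfra, was at 225 to 241 in T1 and 997 to 1297 in T2 cells. Col1a1 was the higher in T1 cells (14.8 to 27.9). In T2 cells it reached 0.979 and Fap 1.86 normalized counts, and Col1a2 and Dcn had 0 reads. The study measured Pdgfra by quantitative PCR as a mesenchymal marker that differed between T1 and T2 cells. Of 7 endothelial markers none had enough reads, and their sum was at most 16.9. The part of other cell types in the results below was not tested beyond these values.

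Members were at very different levels and moved in both directions. Pdcd1lg2, Cd80 and Vtcn1 had 0 reads in all 6 libraries, and Ido1 had 1 read, in T2 replicate 3. In these libraries 3 reads, the limit that a count of 0 allows, correspond to 0.144 to 0.165 CPM (reads scaled to a common library total). The other 6 members had reads in every library and passed the filter for the comparison, a mean of at least 10 normalized counts (reads divided by the sample's size factor). T1 cells held more Cd276, Pvr, Lgals9 and Nt5e and less Cd47, all past the threshold of 0.01 on the adjusted p-value, and Cd274 did not pass (limma on log2(normalized count + 1) with Benjamini-Hochberg adjustment over 11514 genes). The background is high, because 49.5% of all genes compared passed this threshold, 25.1% as higher and 24.4% as lower in T1 cells. In all 6 members the T1 and T2 values did not overlap, as in 68.1% of all genes compared. For each of them the exact permutation test gave a two-sided p = 0.1, the smallest that 3 against 3 allow. These are bulk samples, in which fewer expressing cells and less RNA per cell cannot be told apart.

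**Figure D1:**
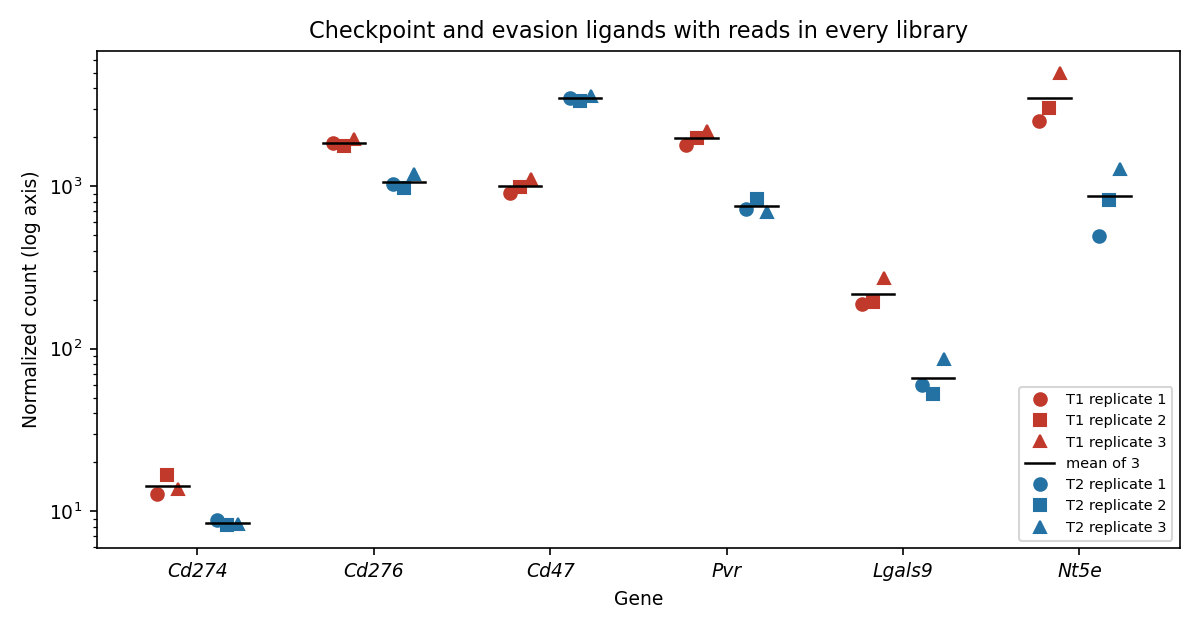
Normalized counts (log axis) of the 6 members with reads in every library. Red symbols are the T1 replicates, blue the T2 replicates, and black lines the means. The blue symbols lie above the red for Cd47 (3361 to 3600 against 905 to 1106) and below them for the other genes, and Cd274 lies under 17 in every library.

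Cd47 was the member with the smallest spread relative to its difference and the only one lower in T1 cells. It is the gene at chromosome 16, 49800533 to 49915010 of mm10, on the plus strand, with 10 annotated transcripts that the counts do not separate. Its normalized counts were 905, 991 and 1106 in T1 replicates 1 to 3 and 3471, 3361 and 3600 in T2 replicates 1 to 3. Every T2 library held more than 3 times the highest T1 value. The means were 1001 ± 101 and 3478 ± 120 (SD, n = 3 each), and the log2 fold change of T1 over T2 was -1.80 (standard error 0.09, limma adjusted p = 9.39e-08), under 2 in size.

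Pvr (chromosome 7, 19903578 to 19921160, minus strand) went the other way. Its normalized counts were 1785, 1971 and 2181 in the T1 replicates and 727, 839 and 695 in the T2 replicates. The populations were well apart, with means of 1979 ± 198 and 753 ± 75.4 (SD, n = 3 each) and a log2 fold change of 1.39 (standard error 0.11, limma adjusted p = 1.8e-06). Its span overlaps Gm16184 and Gm16251 on the other strand, whose reads cannot be told apart from its own because no strand setting is stated.

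Cd276 (chromosome 9, 58524298 to 58555437, minus strand, overlapping Gm10657 on the other strand) had the smallest of the differences that passed the test. It was at 1848, 1769 and 1937 in the T1 replicates and 1034, 978 and 1184 in the T2 replicates. The lowest T1 value was above the highest T2 value, and the means of 1852 ± 84.3 and 1065 ± 107 (SD, n = 3 each) gave a log2 fold change of 0.80 (standard error 0.09, limma adjusted p = 3.66e-05).

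Lgals9 (chromosome 11, 78962974 to 78984946, minus strand) was a ligand of low abundance. It was at 189, 193 and 270 in the T1 replicates and 59.7, 52.2 and 86.3 in the T2 replicates, so that replicate 3 was the highest of each population. The means were 217 ± 45.9 and 66.1 ± 17.9 (SD, n = 3 each), a difference of 1.72 on the log2 scale (standard error 0.23, limma adjusted p = 9.06e-05).

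Nt5e (chromosome 9, 88327197 to 88372092, plus strand) had the largest fold change and the widest spread of the 5. Its normalized counts were 2509, 3009 and 4941 in the T1 replicates and 495, 818 and 1281 in the T2 replicates. The coefficient of variation was 36.9% in T1 and 45.7% in T2 cells, against 3.44% to 10.1% for Cd47, Pvr and Cd276. The means were 3486 ± 1285 and 865 ± 395 (SD, n = 3 each), and the log2 fold change was 2.05 (standard error 0.32, limma adjusted p = 0.000259). The study's methods added a second filter to the adjusted p-value of 0.01, a log2 fold change over 2, which was applied here to its size in either direction, and Nt5e was the only member past both. Of all genes compared 8.37% passed both, 4.17% as higher and 4.2% as lower in T1 cells. That depended on single libraries: the log2 fold change was 1.77 without T1 replicate 3 and 1.71 without T2 replicate 1, each still past an adjusted p-value of 0.01 (limma adjusted p = 0.000716 and 0.000986).

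Cd274, the best known of the ligands, was close to the lower limit of the measurement. It had 12, 18 and 14 reads in T1 replicates 1 to 3 and 9, 8 and 9 reads in T2 replicates 1 to 3. All T1 values were above the T2 values, with 14.4 ± 2.11 and 8.45 ± 0.323 normalized counts (SD, n = 3 each). The log2 fold change of 0.69 had a 95% interval from -0.05 to 1.44 and an adjusted p-value of 0.0951 in limma, so a difference was not detectable at this depth. Over the alternatives its adjusted p-value ran from 0.00249 (limma without a trend of the variance with the mean, the only one past 0.01) to 0.303 (DESeq2). Cd274 (chromosome 19, 29367455 to 29388095, plus strand) shares its span with AC119228.1, annotated on the opposite strand. Its neighbor Plgrkt ends 65 bases before it, and an exon of Plgrkt covers most of the Cd274 window, which is why its printed stretch has only 47 bases. Pdcd1lg2, without a read, starts 22824 bases beyond the end of Cd274.

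**Figure D2:**
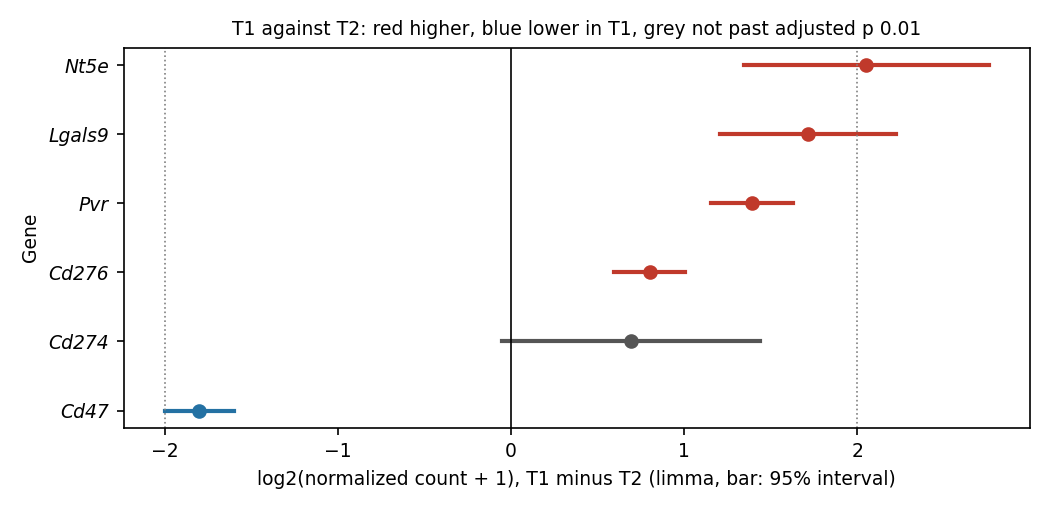
Log2 fold change of T1 over T2 cells for the 6 members compared (points, limma) with 95% intervals (bars). Dotted lines mark log2 fold changes of 2 in size, and only the interval of Cd274 (-0.05 to 1.44) includes 0.

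Replicate 3 was often the highest of its population among the members. T1 replicate 3 had the highest T1 value of Cd276, Cd47, Pvr, Lgals9 and Nt5e, and T2 replicate 3 the highest T2 value of Cd276, Cd47, Lgals9 and Nt5e. The share of all genes with their highest value in replicate 3 was not determined, so this is not read as a trait of the members. Leaving out each replicate in turn kept Cd276 between 0.74 and 0.88, Cd47 between -1.87 and -1.73, Pvr between 1.32 and 1.47 and Lgals9 between 1.55 and 1.92 (log2 fold change), and the calls of these genes were kept in each of the alternatives run.

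Levels of different genes were set side by side per kilobase of annotated exon. In T1 cells the order was Cd276 (506 ± 23.0 normalized counts per kb), Nt5e (405 ± 149), Pvr (323 ± 32.4), Cd47 (159 ± 16.1), Lgals9 (102 ± 21.5) and Cd274 (3.97 ± 0.583; SD, n = 3 each). The replicate values of Nt5e, from 292 to 574, overlapped those of Cd276 above it and Pvr below it. In T2 cells Cd47 came first (554 ± 19.1), before Cd276 (291 ± 29.1), Pvr (123 ± 12.3), Nt5e (101 ± 45.9), Lgals9 (30.9 ± 8.38) and Cd274 (2.33 ± 0.0891; SD, n = 3 each). Pvr and Nt5e overlapped there. Cd47 thus ranked 4 of 6 in T1 cells and 1 of 6 in T2 cells, also per kb of the longest transcript (191 and 662). On that scale the top of the T1 order changed to Nt5e (873), Pvr (681) and Cd276 (514).

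**Figure D3:**
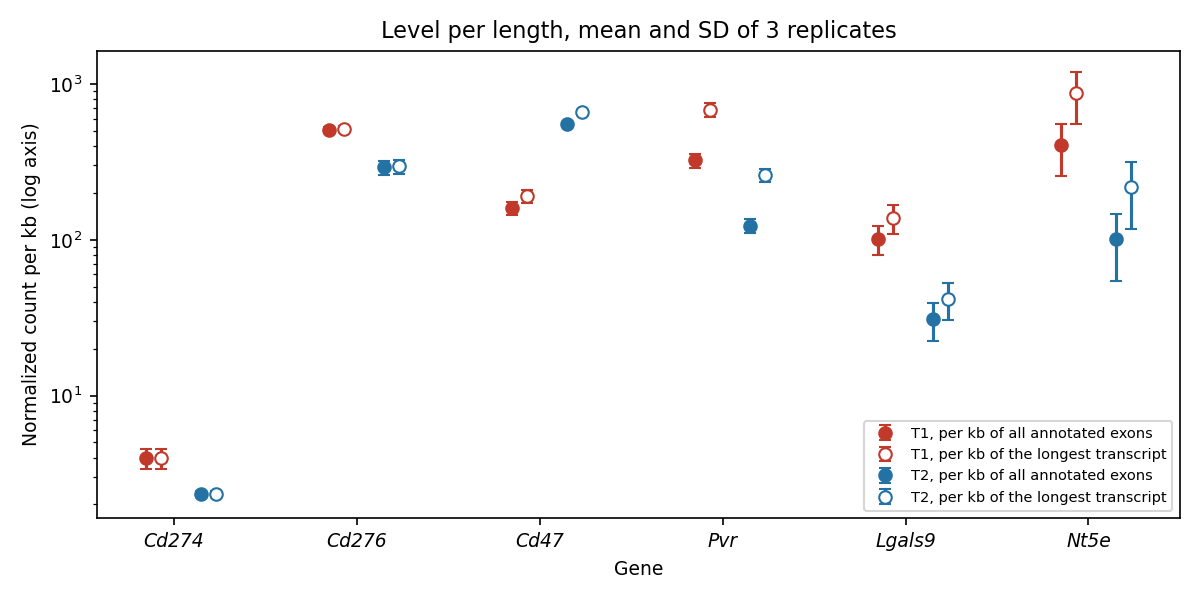
Normalized count per kb (log axis) for T1 (red) and T2 cells (blue), with the length taken as all annotated exons (filled) or the longest transcript (open). Points are means and bars SDs of 3 replicates. Cd47 is the highest member in T2 cells by either length (554 and 662), and Cd274 is under 4 in each population.

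Genes of the related pathways were read from the same comparison. Of 98 genes in 10 lists 96 were in the table, 17 had no read in any library and 56 had enough reads to be compared. The test called 22 as higher and 21 as lower in T1 cells (76.8% of the 56), with 8 past both filters. Of all genes compared 49.5% were called, 25.1% as higher and 24.4% as lower, and 8.37% passed both filters. The counts of single lists below stand beside these shares. The median log2 fold change of the 56 was 0.07, against -0.01 for all genes compared.

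The list around Cd47 held partners of CD47 together with other signals for or against engulfment, and 8 of its 9 genes were compared. The test called 3 as higher and 3 as lower in T1 cells. The median over the 8 log2 fold changes was 0.22, and these figures describe the mixed list, not the partners alone. Thbs1, thrombospondin 1, a secreted ligand of CD47, was at 46676 to 56351 normalized counts in T1 and 2705 to 2994 in T2 cells, a log2 fold change of 4.18 (limma adjusted p = 4.04e-10). Cd47 and this ligand thus lay on opposite sides. Sirpa, the receptor for CD47, was at 190 ± 21.4 and 95.1 ± 17.3 (SD, n = 3 each) and was also higher in T1 cells, as was Anxa1, with limma adjusted p = 0.000737 and 0.000103. The genes lower in T1 cells were Cd24a, another signal against engulfment (log2 fold change -0.71), Lrp1, a receptor for engulfment signals (-1.42), and B2m, the light chain of MHC class I (-0.63). The call of B2m was lost without T1 replicate 1, T2 replicate 1 or T2 replicate 3 (limma adjusted p up to 0.0112) and in limma without the variance trend (0.0165). Qpctl, which modifies the CD47 protein at its end, had a log2 fold change of 0.15 that did not pass the test (limma adjusted p = 0.455).

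In the nectin family, to which Pvr is related, 4 of 5 genes were compared and all 4 passed the test, 1 as higher and 3 as lower in T1 cells. Nectin2, which shares TIGIT and CD226 with Pvr, was at 995 to 1109 in T1 and 516 to 567 in T2 cells, a log2 fold change of 0.94. Nectin3 and Nectin1, cell adhesion molecules, were lower, with log2 fold changes of -1.52 and -0.99. Cadm1, whose product is bound by the lymphocyte receptor CRTAM, had 6 reads in all T1 libraries together and 78 in the T2 libraries, a ratio of 13.0 (95% counting interval 5.72 to 36.6). TIGIT itself is a lymphocyte receptor, yet Tigit was at 1063 to 1313 normalized counts in T1 and 824 to 880 in T2 cells, while Cd96 and Cd226 had 0 reads. The Tigit log2 fold change of 0.49 lost its call without T1 replicate 2 (limma adjusted p = 0.0103). Which part of the Tigit gene its reads cover was not tested, so the count is given as reads assigned to the gene. Among the other receptors, Pdcd1, Ctla4, Btla and Icos also had 0 reads. Havcr2, the gene of TIM-3, a receptor for galectin 9, was at 18.5 to 27.5 in T1 and 136 to 195 in T2 cells, a log2 fold change of -2.85 (limma adjusted p = 3.74e-06), on the opposite side from Lgals9.

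In the list of other galectins, which also holds the galectin binding protein Lgals3bp, more genes were lower than higher in T1 cells, unlike Lgals9. Of 8 genes 6 were compared, with 1 higher and 4 lower in T1 cells and a median log2 fold change of -1.18. Lgals7 was at 7.41 to 11.7 normalized counts in T1 and 496 to 611 in T2 cells, a log2 fold change of -5.74, and Lgals3bp, a galectin binding protein, had -2.61. Lgals2 had -1.78, a call that was lost without T1 replicate 2, T1 replicate 3 or any of the T2 replicates (limma adjusted p = 0.0138 to 0.0271) and in DESeq2 (0.0127). Lgals1, the most abundant, at 162199 to 190211 in T1 and 117661 to 132539 in T2 cells, rose by 0.50, and Lgals3 did not pass the test.

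Among other ligands that stimulate or restrain immune cells only 2 of 10 genes had enough reads, and 4 had none (Cd86, Btnl2, Cd200 and Vsig4). Btn1a1, a butyrophilin of milk fat, was at 52.7 to 76.2 in T1 cells with 0 reads in T2 cells, at least 22.4-fold higher against a floor of 3 reads per library. Icosl, the ligand of ICOS, was at 16.6 to 41.3 and 5.88 to 10.2, a log2 fold change of 1.69 whose call was lost without T1 replicate 1, T1 replicate 2, T2 replicate 1 or T2 replicate 3 (limma adjusted p = 0.0131 to 0.0197). Of the ligands of NKG2D, an activating receptor of natural killer cells, 7 of 9 were in the table and 1 was compared, Ulbp1. It was at 212 to 268 in T1 and 847 to 1004 in T2 cells, a log2 fold change of -1.95 (limma adjusted p = 5.81e-07). Raet1a, Raet1c, Raet1d, Raet1e and H60c had 0 reads, and near-identical copies of the Raet1 genes can lose reads in counting.

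The interferon gamma pathway, which acts on Cd274 and Ido1, was mixed, with 4 of 12 genes higher and 5 lower in T1 cells and a median log2 fold change of -0.02. Irf1 (773 to 1007 in T1, 343 to 418 in T2 cells) and the receptor chain Ifngr2 had log2 fold changes of 1.19 and 1.14, and the kinase Jak1 had 0.60. Its partner kinase Jak2 was at 520 to 688 in T1 and 5179 to 6107 in T2 cells, a log2 fold change of -3.17 (limma adjusted p = 1.08e-08). Jak2 lies on the same chromosome as Cd274, 54375 bases before it. The feedback inhibitors Socs1 and Socs3 had log2 fold changes of -1.47 and -1.57. The call of Socs3 was lost without T1 replicate 1, T1 replicate 3 or any of the T2 replicates (limma adjusted p = 0.011 to 0.0412), and also with a pseudocount of 0.5, without the variance trend, by edgeR and by DESeq2 (adjusted p = 0.0101 to 0.045). Of 8 regulators of the PD-L1 protein all were compared, with 2 higher, 1 lower and 5 not past the test. The membrane partners Cmtm6 and Cmtm4, which protect PD-L1 from breakdown, differed in direction, at -0.58 and 0.87 on the log2 scale. Hip1r, which routes PD-L1 to the lysosome, had 0.59, a call lost whenever 1 of the T1 replicates was left out (limma adjusted p = 0.0113 to 0.0187) and without the variance trend (0.0189).

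Around Nt5e, 6 of 13 genes of the adenosine pathway were compared, with 3 higher and 2 lower in T1 cells. Dpp4, which binds adenosine deaminase at the cell surface, had 0 reads. Entpd1, the CD39 enzyme that supplies AMP to CD73, had at most 2 reads in a library, and Adora1, Adora2a and Adora3 were also near 0. Adora2b had 2 to 8 reads in each library, too few to be compared. Enpp1 was at 47.8 to 70.9 in T1 and 43.0 to 98.4 in T2 cells and did not pass the test (log2 fold change -0.06, limma adjusted p = 0.888). Ada and Adk, which remove adenosine, had log2 fold changes of 0.96 and 0.60. The adenosine carrier Slc29a1 had -1.04 and its relative Slc29a2 had 0.84, the latter lost without T1 replicate 1 (limma adjusted p = 0.0105) or without the variance trend (0.0106). Cd38, an enzyme that consumes NAD, had 5 reads in the T1 libraries together and 241 in the T2 libraries, a ratio of 48.3 (95% counting interval 20.4 to 150.1).

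Around Ido1, 7 of 14 genes of tryptophan use were compared, with 5 higher and 1 lower in T1 cells and a median log2 fold change of 0.91. The genes that rose do not make kynurenine. They were the amino acid carriers Slc7a5 (7090 to 13767 in T1 and 2174 to 2610 in T2 cells, log2 fold change 1.87) and Slc3a2 (1.26), the transaminase Kyat3 (1.31), the tryptophanyl tRNA synthetase Wars (0.91) and the kynurenine receptor Ahr (0.75). Afmid, which acts directly after Ido1, was at 157 ± 12.7 in T1 and 315 ± 17.2 in T2 cells (SD, n = 3 each) and was lower in T1 cells (limma adjusted p = 9.46e-05). Kynu had no read in any library, and Ido2, Tdo2, Kmo, Haao and Qprt had too few to be compared.

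**Figure D4:**
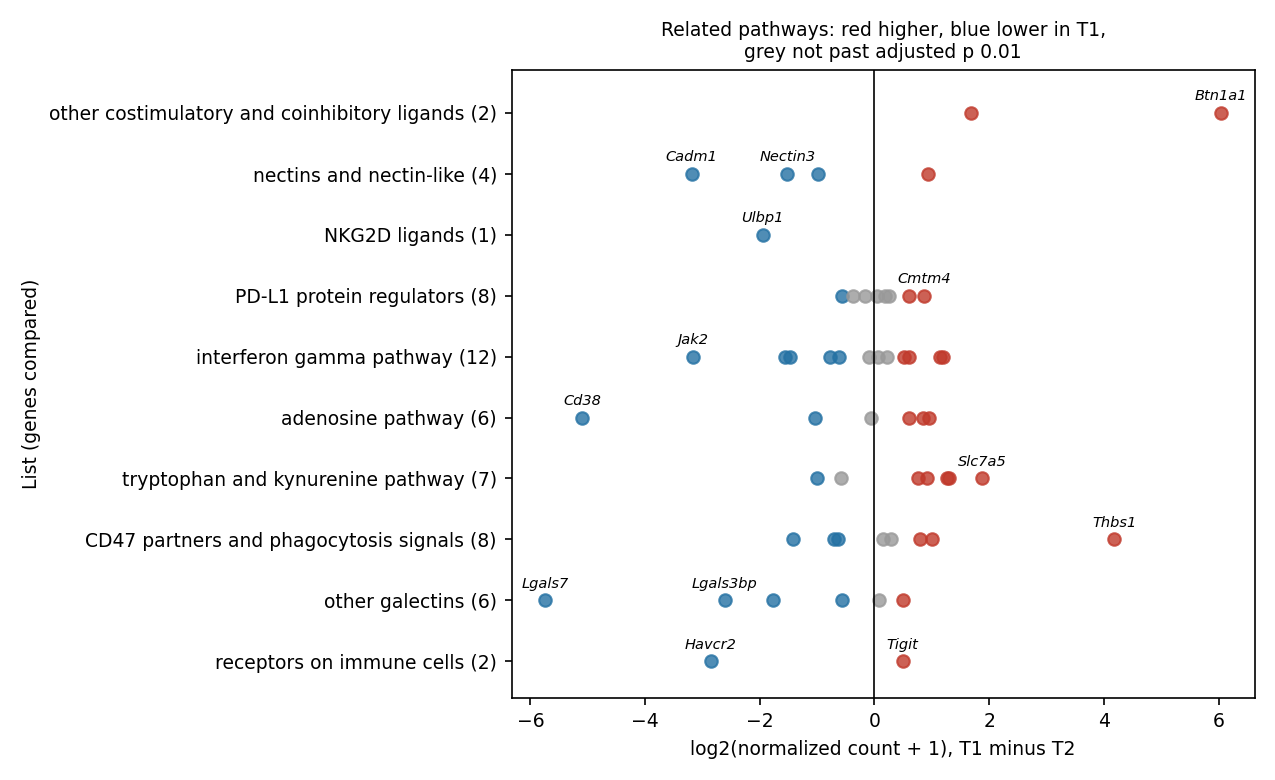
Log2 fold change of T1 over T2 cells for the 56 genes compared in the 10 related lists, 1 point per gene. Red points are higher and blue points lower in T1 cells by the limma test (threshold 0.01), and grey points did not pass. Thbs1 (4.18) and Btn1a1 (6.04, fitted against 0 T2 reads) lie far to the right, and Lgals7 (-5.74), Cd38 (-5.10) and Jak2 (-3.17) far to the left.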

How the data were processed

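RNA of 3 replicates of T1 and 3 of T2 cells had been sequenced. Per the study's methods, the authors used Trimmomatic for trimming, TopHat2 for alignment to mm10, HTSeq for counts per gene and DESeq2 for normalization. Annotation, strand setting and versions are not given in the sources used here. Each value of the deposited signal is a gene's reads over the size factor of its sample. Multiplied back, 100% of values were whole reads (within 0.01 of a read).

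The fit used limma 3.58.1 (R 4.3.3) with a variance trend, over genes whose mean was 10 normalized counts or more. The scale log2(normalized count + 1) understates the change of low genes. P-values were adjusted over all 11514 genes. The alternatives edgeR 4.0.16 (quasi-likelihood) and DESeq2 1.42.0 were run on the recovered reads, and gave 486 higher and 488 lower, and 487 higher and 487 lower genes past both filters, against 480 and 484. On simulated data with the gene means and library sizes of these data, limma found 200 of 200 changed genes and called 2 of the unchanged among 11473. The simulation gave all genes the same small dispersion and planted changes larger than that of any member. It therefore checks that the code runs as meant, and cannot give the power or the share of false calls in these data. Other alternatives were the pseudocount, the filter, quantile normalization, no trend, a replicate term and leaving out each replicate.

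Exonic lengths, coordinates and overlaps came from GENCODE M21 on mm10. Promoter windows came from RefSeq (GRCm38.p6). The table lists the nectins and Kyat3 under older symbols. Genes named besides the members were the 3 per list and direction with the largest fold changes among those past 0.01, and those without reads. Ahr, Wars, Lgals3, Qpctl, Entpd1, Enpp1 and other genes given as low were added after their values were seen. The members and lists were chosen with earlier results of these data known. Intervals and the floor of 3 reads cover counting error only.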

Additional observations from a re-analysis of the deposited data

How the results depend on the processing

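The number of members called at an adjusted p-value under 0.01 was 4 higher and 1 lower in T1 cells in each alternative except limma without a variance trend, which gave 5 higher by adding Cd274. The number of members past both filters was 0 to 1 over the fits leaving out 1 replicate, and was 0 without T1 replicate 3 or T2 replicate 1. Among the related lists, 5 genes in place of 8 passed both filters when a mean of at least 50 normalized counts was required, because fewer genes were compared. No direction was reversed among the members compared and the genes named by the rule for the lists. For the genes added later and for neighboring genes the alternatives were not examined. Per kb of the longest transcript in place of all exons, the level of Cd47 was 191 in T1 and 662 in T2 cells, of Pvr 681 and 259, of Lgals9 137 and 41.7, and of Nt5e 873 and 217, as the length alone changes. Replicates with the same number had correlations of deviations of 0.0575, 0.172 and 0.104, all positive but low. The study does not describe them as pairs, and the main fit had no replicate term. Every sample correlated best with its own number except T2 replicate 1 (0.0719 with T1 replicate 3). With the replicate number as a block, 481 genes were higher and 486 lower past both filters against 480 and 484, and the members called were the same number, 4 higher and 1 lower, with Nt5e at an adjusted p of 1.36e-07 against 0.000259. Depth limits Cd274, at 8 to 18 reads a library, and the 4 members with 0 or 1 read.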

Other observations

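The nearest protein-coding genes on each side of the members were read after the members' values were seen. Those of Cd47 were also lower in T1 cells, as were 24.4% of all genes compared. So was every other neighbor that passed the test, also beside members that were higher in T1 cells. Ift57, on its lower side, was at 417 ± 32.1 in T1 and 914 ± 55.3 in T2 cells, a log2 fold change of -1.13 (limma adjusted p = 7.02e-06). Bbx, 276834 bases beyond Cd47, was at 439 ± 40.5 and 2166 ± 135, with -2.30 on the log2 scale (SD, n = 3 each; limma adjusted p = 4e-08). Other neighbors varied. Nptn next to Cd276 had a log2 fold change of -0.75 and Ksr1 next to Lgals9 of -1.81, opposite to the members. Snx14 next to Nt5e had -0.02 and Plgrkt next to Cd274 had 0.08, neither past the test (limma adjusted p = 0.927 and 0.678). Beside the members without reads, Man1a2 and Trim45 on the sides of Vtcn1 were lower in T1 cells, with log2 fold changes of -0.59 and -1.48 (limma adjusted p = 0.00012 and 0.000148). Timmdc1 and Adprh beside Cd80 had 0.31 and -0.12 and Ric1 beside Pdcd1lg2 had 0.05, none past the test (limma adjusted p = 0.0459, 0.443 and 0.741). The neighbors of Pvr and Ido1, Nos2 beside Lgals9 and Tbx18 beside Nt5e had too few reads to be compared. Insyn1 beside Cd276 was not found under that symbol.

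Tigit and Havcr2 are genes of lymphocyte and myeloid receptors, and both had reads here. Of the leukocyte markers Cd14 (319 to 375 in T1 and 69.5 to 102 in T2 cells) and Cd68 (58.2 to 118 in all libraries) also had reads. Ptprc and Cd79a had a few in each T2 library and 0 in T1 cells. Csf1r went the other way, with 2 to 10 reads in the T1 and 0 to 1 in the T2 libraries. Coro1a had scattered reads in both populations. The Tigit gene is annotated with 1 transcript of 919 bases and overlaps no other annotated gene. Its reads ranged from 824 to 1313 normalized counts over the 6 libraries, and which part of the gene they cover was not tested.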
